A study of Homo sapiens with 6 samples.

Results

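The RBM-named genes are a loosely related family of RNA-binding proteins, and 41 of them were examined here in HCT116 cells, a human colorectal cancer line. They were chosen as the protein-coding genes whose symbol starts with RBM, without RBM47 itself, with a mean of at least 10 counts over the 6 libraries, out of 28491 genes in the count table, 16530 of them protein-coding. None of the RBM-named rows lay on chromosome Y. All 41 passed the filter on low counts that left 16260 genes for testing. Just outside the limit lay RBMXL2, with counts of 6, 1 and 5 in NC and 3, 2 and 7 in RBM47-OE, and RBMS3, with counts of 10, 1 and 1 and then 3, 0 and 9, both with a mean of 4. Just inside lay RBM44 with a mean of 12.8 counts and RBM46 with 14.3.

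The study asked what overexpression of RBM47 does to gene expression and splicing in these cells. Each group held 3 libraries of polyadenylated RNA. The NC cells received a control plasmid and the RBM47-OE cells a plasmid with the RBM47 transcript NM_019027 in HCT116 cells that were otherwise untreated, both by lipid transfection, and the time after transfection was 48 h. The sample labels name the plasmid as pcDNA3.1-3xFlag and the medium as DMEM, whereas the study's methods name pIRES-hrGFP-1a and McCoy's 5A. The labels do not say whether the libraries of a group came from separate cultures, so the p-values measure the spread between these libraries, which may be technical. In bulk RNA, a change of level in every cell and a change in a share of the transfected cells cannot be told apart.

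The libraries held between 26792409 and 35477983 counts on genes. The epithelial markers EPCAM, CDH1, KRT8, KRT18 and KRT19 had between 12.93 and 1056.65 FPKM in every library, and the endothelial marker PECAM1 at most 0.03. Of the stromal and blood markers, PTPRC and DCN had no row, COL1A1 had 1.31 to 1.72 FPKM and ACTA2 1.45 to 2.90, and ACTA2 was lower in RBM47-OE (log2 fold change -0.56, adjusted p = 0.00682). Of the epithelial markers, KRT8 (-0.27, adjusted p = 0.0118) and KRT18 (-0.36, adjusted p = 0.00113) were lower and EPCAM was higher (0.26, adjusted p = 0.007), while CDH1 and KRT19 did not pass. The part of these markers in the results was not tested. RBM47-OE replicate 1 stood apart from the other overexpression libraries: the chi-square statistic per gene was 17.9 and 19.5 between it and replicates 2 and 3, against 8.95 between those, and 3.38 to 4.79 among the NC libraries.

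Most RBM proteins carry one or more RNA recognition motifs, a fold of the protein that lays single-stranded RNA across a beta sheet, and the name RBM (RNA binding motif) was given for that fold rather than for a shared function. Members sit in the spliceosome, in the exon junction complex that marks spliced mRNA, in the complex that writes m6A onto RNA, in nuclear RNA decay and in the nucleolus, and several others control the stability of mRNA. RBM47 is itself a splicing and mRNA stability factor of epithelial cells and a partner of cytidine deamination of mRNA. Its closest relative among the members is RBM46.

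RBM47 was the gene changed by design. It had 501, 797 and 552 counts in NC and 41818, 38577 and 34858 in RBM47-OE, which does not separate plasmid from endogenous transcripts. Among the members and RBM47 together, 42 genes, RBM47 stood at rank 30 to 33 by FPKM in NC, with 1.91 to 2.33 FPKM, and at rank 1 in each RBM47-OE library, with 127.04 to 131.3 FPKM. It then held 26.1% to 28.0% of the summed FPKM of these genes, against 0.556% to 0.652% in NC.

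The 24 bases that encode RNP1, the conserved 8-residue strand of the RNA recognition motif that touches RNA, are shown for some members because the genes write the same strand with different codons. A match to the RNP1 pattern was found in 18 members, 21 matches in all, in the canonical GENCODE 44 transcripts. Capitals mark the last base of each codon, and the sequences run 5′ to 3′ on the coding strand of GRCh38. Those of RBM39 and RBM38 are split by an intron. All were read from the reference and not from these libraries.
RBM39 (chr20:35714387-35716760, minus strand): aaGggAtaTggAttTatTacAttT
RBM46 (chr4:154797960-154797983, plus strand): cgAggTtaTgcTttTgtGatGtaC
RBM34 (chr1:235135655-235135678, minus strand): aaAggGttTggCtaTgtGctCttT
RBMX (chrX:136879065-136879088, minus strand): agAggAttTgcTttTgtCacCttT
RBMXL1 (chr1:88983659-88983682, minus strand): agAggAttTgcTttTgtCacCttT
RBM10 (chrX:47175027-47175050, plus strand): cgGggCttCgcCttCgtCgaGttT
RBM38 (chr20:57391804-57392662, plus strand): cgCggCtaCggCttCgtGacCatG
RBM42 (chr19:35637286-35637309, plus strand): aaGggCtaCggCttCgtCagCttC

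G or C filled 1 of the 8 last codon positions in RBM39, 3 in RBM46, 4 in RBM34, 7 in RBM10 and 8 each in RBM38 and RBM42. Among members not printed, RBMX2 had 4, and RBM19, RBM3, RBM5 and RBM24 had 5 each. RBMX and RBMXL1, a retrocopy of RBMX, had the same 24 bases. How many reads the pair shares was not measured, so the counts of both are given as uncertain.

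Levels of the members spanned from RBM44 and RBM46, germ cell genes with at most 0.19 FPKM in any library, to RBM42. The 6 members with the highest mean FPKM, which is scaled to gene length, were RBM42, a protein of the U4/U6.U5 tri-snRNP (39.8 ± 1.37 in NC and 31.6 ± 2.89 in RBM47-OE, SD, n = 3 each), the cold-inducible RBM3 (30.9 ± 0.121 and 34.2 ± 1.55), the readthrough gene RBM14-RBM4 (30.0 ± 1.32 and 25.1 ± 0.499), the splicing regulator RBM10 (28.7 ± 1.44 and 25.4 ± 1.29), the splicing regulator RBMX or hnRNP G (24.02 ± 1.21 and 28.6 ± 2.54) and RBM8A, the exon junction protein Y14 (24.01 ± 0.488 and 26.3 ± 1.09). In NC the means of RBM42 and RBM3, and of RBM10 and RBMX, lay further apart than their SDs, while the other neighbours in this order did not. RBM20, a muscle splicing regulator, stayed low at 0.77 to 0.86 FPKM in all 6 libraries.

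**Figure D1:**
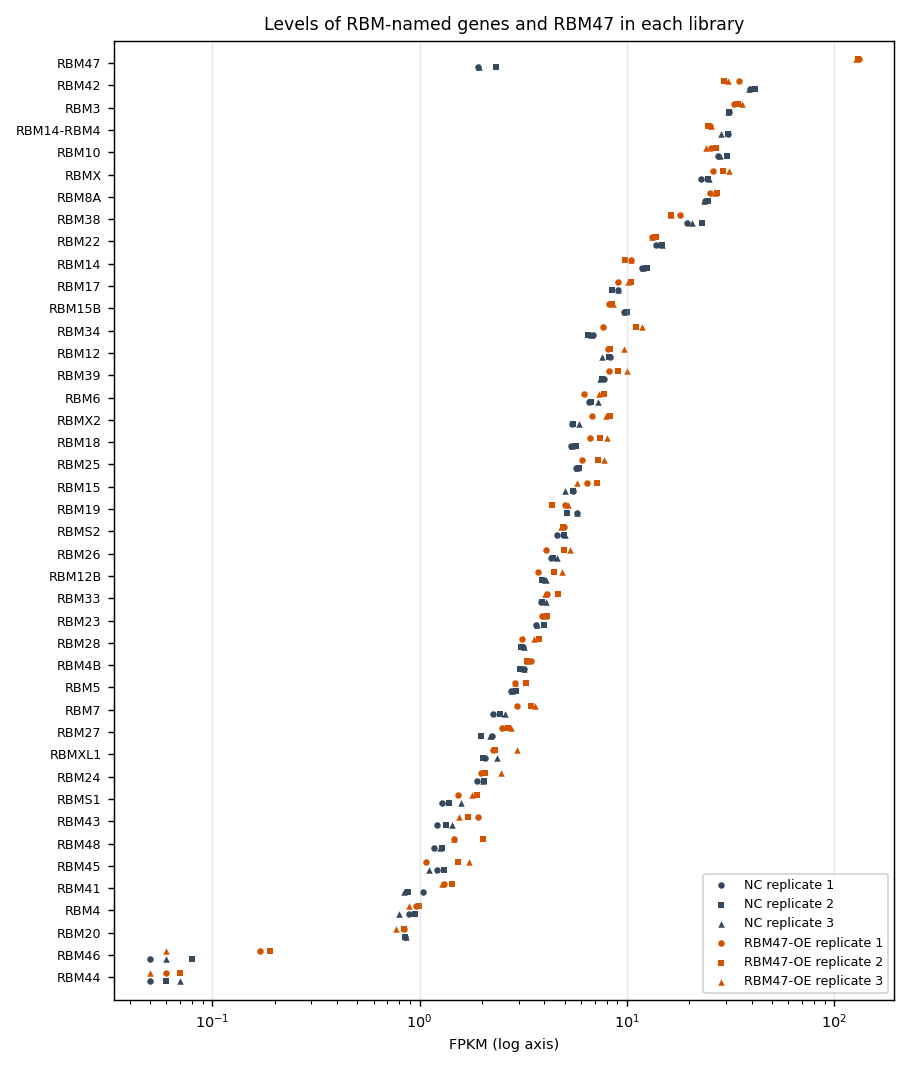
FPKM of each RBM-named gene and of RBM47 (vertical axis) on a log axis, with 1 point for each library, dark for NC and orange for RBM47-OE, and the marker shape giving the replicate number. RBM47 moves from 1.91 to 2.33 FPKM in NC to 127.04 to 131.3 in RBM47-OE, while the points of most other genes stay close together.

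In the comparison of RBM47-OE with NC, 8 members rose and 7 fell at an adjusted p under 0.05 (edgeR's quasi-likelihood test), and 26 did not pass. Those are 19.5% and 17.1% of the members, near the 19.1% of all tested genes called higher and the 16.9% called lower. Of the protein-coding genes tested, 22.6% were called higher and 19.4% lower. The 3 libraries of each group did not overlap in any of the 15 called members. Over the whole family, 21 members did not overlap (51.2%), against 46.5% of all genes and 52.4% of protein-coding genes. With the study's cut-offs of p under 0.01 and a fold change over 1.5, 0 members were called in either direction. Of all genes, 1.51% were called higher and 0.873% lower at these cut-offs, and DESeq2 also called 0 members there. An unadjusted p under 0.05 by edgeR was reached by 22 of the 41 members. That compares with 7214 of the 16260 genes and 6776 of the 13295 protein-coding genes tested. The median log2 fold change of the members was 0.06, with 29 above and 12 below 0, and that of all genes was 0.00. Scaling by library totals in place of TMM gave 13 higher and 6 lower, with a member median of 0.12. The share of all genes called with that scaling is not given here, so these counts have no background beside them.

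**Figure D2:**
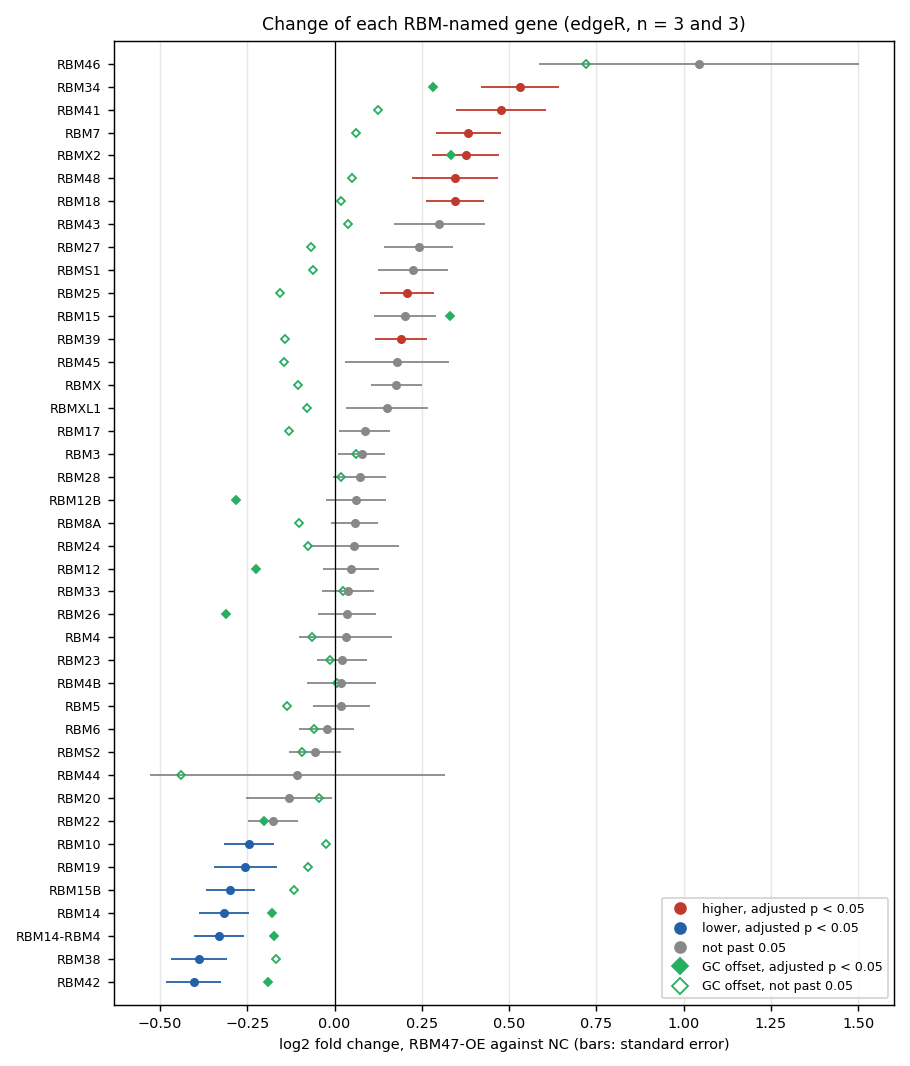
Log2 fold change of each of the 41 genes, RBM47-OE against NC, as circles with standard errors (red higher, blue lower, grey not past an adjusted p of 0.05), and the same from the fit with a GC offset as green diamonds, filled where past 0.05. The 15 coloured circles range from -0.40 for RBM42 to 0.53 for RBM34, and most diamonds lie to the left of circles on the upper side and to the right of the blue ones.

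The composition of exons moved with these changes. A second fit carried an offset for exonic GC content, estimated in each library over all genes. It called 3 members higher (7.32%, against 6.1% of all genes and 7.05% of protein-coding genes). It called 7 lower (17.1%, against 8.54% of all genes and 9.72% of protein-coding genes). Both fits called 5 of the members in the same direction, RBM34 and RBMX2 higher and RBM14, RBM14-RBM4 and RBM42 lower. The value with the GC offset is therefore given beside each member named with a fold change.

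The 8 spliceosome and exon junction members held 4 of the higher calls and 1 of the lower. Those are 50% and 12.5%, against 19.1% and 16.9% of all genes. The fit with the GC offset called 1 of the 8 higher and 2 lower. Those are 12.5% and 25%, against 6.1% and 8.54% of all genes. RBMX2 (ENSG00000134597.16, chrX:130401987-130413656), a protein of the activated spliceosome, had 17.7, 17.7 and 19.0 CPM in NC and 21.3, 24.8 and 24.4 in RBM47-OE. Every overexpression library lay above every control library. Its log2 fold change was 0.38 (SE 0.10, adjusted p = 0.00351) and 0.33 with the GC offset (adjusted p = 0.00873), and it passed in all 19 alternative settings.

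RBM41 (ENSG00000089682.16, chrX:107061885-107118823), a protein of the minor spliceosome, had 7.42, 6.19 and 5.94 CPM in NC and 9.06, 9.47 and 8.62 in RBM47-OE, a log2 fold change of 0.48 (SE 0.13, adjusted p = 0.00547). With the GC offset it was 0.12 (adjusted p = 0.566). RBM48 (ENSG00000127993.16, chr7:92528773-92540481), also a minor spliceosome factor, had 9.44, 10.1 and 9.87 CPM in NC and 11.4, 14.9 and 11.1 in RBM47-OE, where replicate 2 was well above the other libraries. Its log2 fold change was 0.34 (SE 0.12, adjusted p = 0.0298) and 0.05 with the GC offset (adjusted p = 0.822), and it did not pass without any one of NC replicates 1, 2 and 3 or RBM47-OE replicate 2. RBM25 (ENSG00000119707.14, chr14:73058532-73123899), a U1-associated splicing factor, had 78.2, 79.6 and 78.1 CPM in NC and 80.4, 91.6 and 101 in RBM47-OE. RBM47-OE replicate 1 lay just above the controls and replicate 3 the furthest away. The log2 fold change was 0.21 (SE 0.08, adjusted p = 0.039), turned to -0.16 with the GC offset (adjusted p = 0.053), and did not pass without any single library other than RBM47-OE replicate 1.

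RBM42 (ENSG00000126254.12, chr19:35629030-35637686) was the lower member of this group. It had 101, 106 and 99.4 CPM in NC and 86.7, 69.5 and 75.0 in RBM47-OE, so that the overexpression library nearest to the controls was replicate 1. Its log2 fold change was -0.40 (SE 0.08, adjusted p = 0.000397) and -0.19 with the GC offset (adjusted p = 0.0313), and it passed in all 19 alternative settings. RBM22, which contacts U6 snRNA in the activated spliceosome, did not pass without the offset (-0.18, SE 0.07, adjusted p = 0.0598) and was lower with it (-0.20, adjusted p = 0.0188). It also passed without RBM47-OE replicate 1 (-0.17, adjusted p = 0.0313). Its libraries did not overlap, at 57.5, 61.3 and 61.2 CPM in NC and 53.3, 53.5 and 52.5 in RBM47-OE. RBM8A and RBM17, a factor of the 3′ splice site, passed in neither fit.

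Among 11 regulators of alternative splicing, 1 was higher and 2 were lower (9.09% and 18.2%, against 19.1% and 16.9% of all genes). Of the 2 lower, 1 is the readthrough gene RBM14-RBM4. RBM39 (ENSG00000131051.24, chr20:35701347-35742312), a U2AF65-related splicing factor and the target of aryl sulfonamide degraders, had 108, 104 and 103 CPM in NC and 111, 116 and 133 in RBM47-OE. The groups were separate but RBM47-OE replicate 1 was close to the controls. The log2 fold change of 0.19 (SE 0.07, adjusted p = 0.0467) turned to -0.14 with the GC offset (adjusted p = 0.082) and did not pass without any single library other than RBM47-OE replicate 1. RBM10 (ENSG00000182872.16, chrX:47145221-47186813) had 114, 124 and 115 CPM in NC and 102, 102 and 94.6 in RBM47-OE, giving a log2 fold change of -0.24 (SE 0.07, adjusted p = 0.00836) and of -0.03 with the GC offset (adjusted p = 0.806). It did not pass without NC replicate 2. Its relatives RBM5 and RBM6 passed in neither fit.

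RBM14-RBM4 (ENSG00000248643.5, chr11:66616626-66646469) had 92.2, 92.0 and 85.1 CPM in NC and 73.2, 68.2 and 72.9 in RBM47-OE, a log2 fold change of -0.33 (SE 0.07, adjusted p = 0.000994) and of -0.17 with the GC offset (adjusted p = 0.0417). It shared 77.2% of its exonic bases with RBM14 and RBM4 on the same strand, so its counts cannot be set apart from theirs with certainty. RBM14 and RBM14-RBM4 are counted separately among the 7 lower members and among those called by both fits, though they are not independent. RBM14 (ENSG00000239306.5, chr11:66616626-66629934), a paraspeckle protein and transcriptional coactivator, had 89.8, 94.0 and 89.7 CPM in NC and 76.8, 67.9 and 74.9 in RBM47-OE. The log2 fold change was then -0.32 (SE 0.07, adjusted p = 0.00152), or -0.18 with the GC offset (adjusted p = 0.034), and it passed in all 19 alternative settings. RBM4 and its close paralog RBM4B, whose exons overlap those of RBM4 on the opposite strand, passed in neither fit.

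RBMX, with 155, 167 and 169 CPM in NC and 172, 183 and 201 in RBM47-OE, did not overlap but did not pass (0.18, SE 0.07, adjusted p = 0.0613; -0.10 with the GC offset, adjusted p = 0.232). Without RBM47-OE replicate 1 it passed at 0.24 (adjusted p = 0.00374). RBM20, RBM23 and RBMXL1 passed in neither fit.

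The paralogs RBM15 and RBM15B, which bring the m6A writer to RNA, had fold changes of opposite sign. RBM15B (ENSG00000259956.2, chr3:51391285-51397908) had 74.5, 76.9 and 75.4 CPM in NC and 61.5, 60.2 and 62.7 in RBM47-OE, and the groups did not overlap. Its log2 fold change was -0.30 (SE 0.07, adjusted p = 0.00191), or -0.12 with the GC offset (adjusted p = 0.178). RBM15 had 29.8, 29.6 and 27.1 CPM in NC and 33.7, 35.99 and 29.7 in RBM47-OE, where replicate 3 overlapped the controls. It did not pass without the offset (0.20, SE 0.09, adjusted p = 0.0811) and was higher with it (0.33, adjusted p = 0.00593). Without RBM47-OE replicate 3 it passed at 0.27 (adjusted p = 0.023). RBM15B shares 20.003% of its exonic bases with DCAF1 on the opposite strand.

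Of the 4 members in nuclear RNA decay and export, RBM7 (ENSG00000076053.12, chr11:114400030-114414203), the RNA-binding subunit of the nuclear exosome targeting complex, was higher. It had 20.7, 22.4 and 23.5 CPM in NC and 26.2, 29.3 and 31.4 in RBM47-OE, a log2 fold change of 0.38 (SE 0.09, adjusted p = 0.00248) and of 0.06 with the GC offset (adjusted p = 0.642). RBM26, a zinc-finger protein of the poly(A) tail exosome targeting pathway, was at 50.9, 51.4 and 53.9 CPM in NC and 46.5, 54.2 and 59.4 in RBM47-OE. The RBM26 groups overlapped, with a log2 fold change of 0.03 (SE 0.08, adjusted p = 0.782), yet the fit with the GC offset called it lower (-0.31, adjusted p = 0.00141). Its paralog RBM27 passed in neither fit (0.24, SE 0.10, adjusted p = 0.0568; -0.07 with the GC offset), though it passed without RBM47-OE replicate 1 at 0.28 (adjusted p = 0.0231), and 44.8% of its exonic bases are shared with another annotated gene. RBM33, a protein of mRNA export, did not pass.

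The nucleolar members went both ways. RBM34 (ENSG00000188739.15, chr1:235131183-235161283) had 23.5, 21.98 and 22.7 CPM in NC and 25.4, 34.9 and 38.3 in RBM47-OE, where replicate 1 was near the controls. Its log2 fold change of 0.53 was the highest among the called members (SE 0.11, adjusted p = 0.000707), and with the GC offset it was 0.28 (adjusted p = 0.0365). RBM34 shares 48.6% of its exonic bases with ARID4B on the same strand, and ARID4B itself was higher (0.37, SE 0.09, adjusted p = 0.00259). RBM19 (ENSG00000122965.11, chr12:113816738-113966325), which acts in ribosomal RNA processing, had 39.4, 34.8 and 39.0 CPM in NC and 33.4, 27.6 and 33.8 in RBM47-OE. The groups lay close, with a log2 fold change of -0.26 (SE 0.09, adjusted p = 0.0289) and of -0.08 with the GC offset (adjusted p = 0.584), and RBM19 did not pass without NC replicate 1, NC replicate 3 or RBM47-OE replicate 2. RBM28, of ribosome biogenesis, passed in neither fit.

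Among the 6 members that act on mRNA stability and translation, RBM38 (ENSG00000132819.17, chr20:57391396-57409333), a p53-induced regulator of mRNA stability, was lower. It had 61.5, 71.8 and 64.6 CPM in NC and 55.1, 47.2 and 48.8 in RBM47-OE. The log2 fold change was -0.39 (SE 0.08, adjusted p = 0.000686), or -0.17 with the GC offset (adjusted p = 0.0697). RBM46, the germ cell paralog of RBM47, had counts of 6, 13 and 8 in NC and 25, 26 and 8 in RBM47-OE. RBM47-OE replicates 1 and 2 were above the controls and replicate 3 was not, and the log2 fold change of 1.04 did not pass (SE 0.46, adjusted p = 0.0771) but did without RBM47-OE replicate 3 (1.38, adjusted p = 0.0296). With the GC offset it was 0.72 (adjusted p = 0.344). RBMS1, a single-stranded nucleic acid binding protein, did not pass (0.22, SE 0.10, adjusted p = 0.085, and -0.06 with the GC offset). It passed without RBM47-OE replicate 1, at 0.30 (adjusted p = 0.0119), and with library totals, at 0.29 (adjusted p = 0.0437). RBM3, RBM24 and RBMS2 passed in neither fit.

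RBM18 (ENSG00000119446.14, chr9:122237622-122264840), an RNA-binding protein of mostly open function, had 32.7, 34.1 and 32.7 CPM in NC and 38.9, 41.4 and 46.0 in RBM47-OE. All the overexpression libraries were above the controls, with a log2 fold change of 0.34 (SE 0.08, adjusted p = 0.00242), but of 0.02 with the GC offset (adjusted p = 0.896). RBM43 did not overlap, at 6.66 to 7.86 CPM in NC and 8.07 to 10.1 in RBM47-OE, and did not pass (0.30, SE 0.13, adjusted p = 0.0716; 0.04 with the GC offset, adjusted p = 0.891). It passed without RBM47-OE replicate 3 at 0.37 (adjusted p = 0.0481). The paralogs RBM12 and RBM12B overlapped between groups (0.05, SE 0.08, and 0.06, SE 0.09) and were called lower with the GC offset, at -0.23 (adjusted p = 0.0214) and -0.28 (adjusted p = 0.00449). RBM12B shares 46.6% of its exonic bases with genes on the opposite strand. RBM44 and RBM45 passed in neither fit. Over the 16 members given here without a value of their own, log2 fold changes ran from -0.13 to 0.18 and the lowest adjusted p was 0.341, and RBM45 was the 1 of them that passed in any alternative setting, without RBM47-OE replicate 1.

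Library by library, the 8 higher members had a median difference from the NC mean of 0.22, 0.43 and 0.42 on the log2 scale in RBM47-OE replicates 1, 2 and 3, and the 7 lower members of -0.25, -0.42 and -0.30. Replicate 1 had the smallest medians, but not for every member, as RBM41 had 9.06 CPM in it and 8.62 in replicate 3. These members were called from the same libraries, so the shared direction follows from the selection. Over all 41 members the median of replicate 1 was 0.02, with 21 above the NC mean. Without RBM47-OE replicate 1 all 15 members were still called, and RBM22, RBM27, RBM45, RBMS1 and RBMX passed as well.

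**Figure D3:**
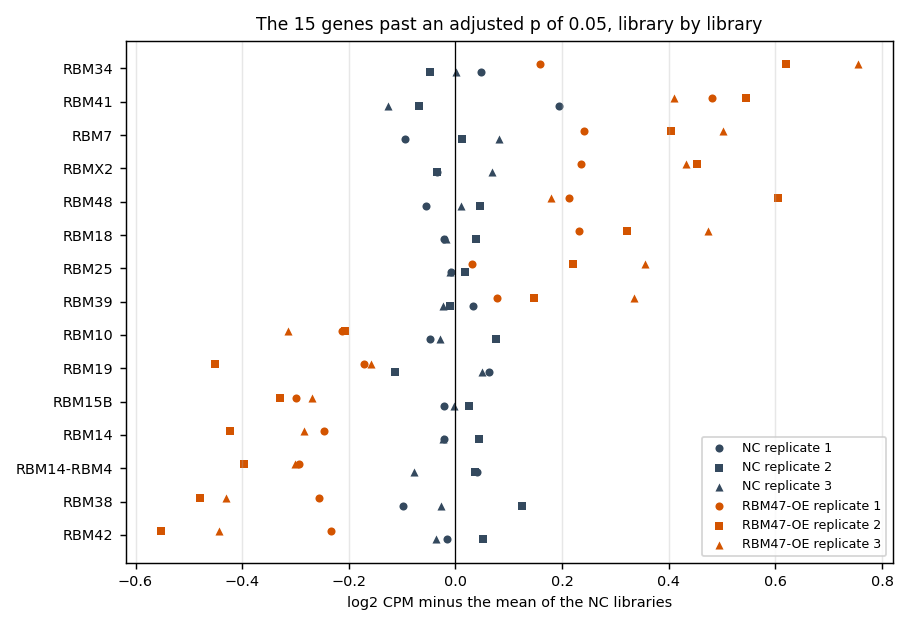
Log2 CPM of each of the 15 called genes minus its mean over the NC libraries (horizontal axis), with 1 point for each library, dark for NC and orange for RBM47-OE. The overexpression points lie outside the control points for every gene, and those of RBM47-OE replicate 1 (circles) are the nearest to 0 for genes such as RBM34, RBM25 and RBM42.

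The summed level of the family was at 2114, 2161 and 2135 CPM in NC and 2076, 2131 and 2225 in RBM47-OE. The sums overlapped, with means of 2136 ± 23.6 and 2144 ± 75.3 (SD, n = 3 each; two-sided exact permutation p = 0.9, where 0.1 is the smallest p that 3 against 3 allows). The members held 0.207% to 0.211% of all counts in NC and 0.208% to 0.225% in RBM47-OE.

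Exonic GC content ordered the calls. Of the 14 members with the lowest GC content (36.9% to 40.5%), 6 were higher and 0 lower, and of the next 14 (40.7% to 47.03%), 2 were higher and 0 lower. Of the 13 with the highest (47.2% to 62.0%), 0 were higher and 7 lower. Across the 41 members, which share libraries, log2 fold change and GC content had a Spearman correlation of -0.71, and across 16192 other genes tested it was -0.63. With the GC offset it was 0.02 over the members. The offset takes out the relation to GC content over all genes, so a value near 0 was largely fixed in advance. The same relation was present in each overexpression library, at -0.53, -0.68 and -0.70. What lies behind it was not tested.

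**Figure D4:**
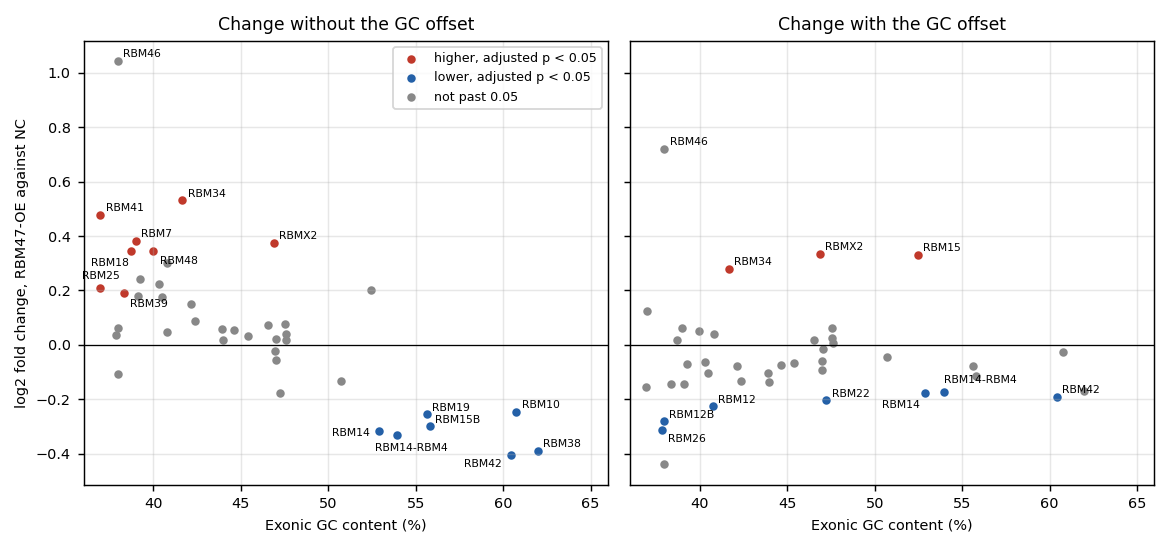
Log2 fold change, RBM47-OE against NC, of the 41 genes against exonic GC content in percent, without the GC offset on the left and with it on the right. Each point is a gene, red if higher, blue if lower and grey if not past an adjusted p of 0.05. On the left the blue points all lie at 52.9% GC or above and the red points at 46.9% or below, and on the right both colours spread along the axis.

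The coding sequences showed the same order at the codon position that the capitals in the RNP1 sequences mark. The median share of G or C there was 37.4% in the 8 higher members (32.5% to 56.2%), 69.7% in the 7 lower members (63.8% to 89.1%) and 46.99% in the 26 others. The ranges of the higher and lower members did not overlap.

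The promoters are shown for the 5 members called by both fits. RefSeq (GRCh38.p14) held a window of 250 bases before to 50 after the start for 37 members, and RBM14 and RBM14-RBM4 have the same one. Capitals mark matches, on either strand, to the GC box GGGCGG, the CCAAT box of these letters, the TATA box TATAAA, the core CATGCGC of NRF1 sites, the core CCGGAAG of ETS sites, the core AAGATGG of YY1 sites, the cyclic AMP response element TGACGTCA (CRE) and the E-box CACGTG. In RBM42 the CRE overlaps an NRF1 core, and in RBMX2 the NRF1 core overlaps its own match on the other strand.
RBM34 (chr1:235161201-235161500, minus strand): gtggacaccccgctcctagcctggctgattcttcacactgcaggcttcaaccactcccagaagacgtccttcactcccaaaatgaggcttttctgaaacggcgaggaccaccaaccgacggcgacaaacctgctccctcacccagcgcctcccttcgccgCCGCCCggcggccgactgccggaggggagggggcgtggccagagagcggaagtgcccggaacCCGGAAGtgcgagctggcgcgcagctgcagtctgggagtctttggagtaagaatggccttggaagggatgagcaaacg
RBMX2 (chrX:130401737-130402036, plus strand): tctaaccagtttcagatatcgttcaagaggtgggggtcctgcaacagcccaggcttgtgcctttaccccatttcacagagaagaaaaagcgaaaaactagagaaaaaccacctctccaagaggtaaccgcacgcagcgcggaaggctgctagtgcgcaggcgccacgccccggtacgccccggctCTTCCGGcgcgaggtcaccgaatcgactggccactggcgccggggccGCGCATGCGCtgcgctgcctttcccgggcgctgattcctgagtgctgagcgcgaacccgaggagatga
RBM14 (chr11:66616380-66616679, plus strand): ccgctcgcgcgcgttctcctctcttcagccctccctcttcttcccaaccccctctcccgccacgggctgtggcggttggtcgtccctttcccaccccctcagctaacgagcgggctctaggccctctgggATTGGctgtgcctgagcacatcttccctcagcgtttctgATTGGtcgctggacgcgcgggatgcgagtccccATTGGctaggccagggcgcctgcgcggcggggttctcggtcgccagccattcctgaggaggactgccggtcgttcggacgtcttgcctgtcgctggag
RBM42 (chr19:35628786-35629085, plus strand): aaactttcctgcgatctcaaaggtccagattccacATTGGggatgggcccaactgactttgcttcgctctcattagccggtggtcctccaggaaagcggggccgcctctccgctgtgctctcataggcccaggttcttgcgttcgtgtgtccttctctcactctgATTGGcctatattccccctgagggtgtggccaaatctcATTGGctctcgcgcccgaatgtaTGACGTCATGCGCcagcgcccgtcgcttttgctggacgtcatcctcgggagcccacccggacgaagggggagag

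CCAAT was found in 21 of the 37 member promoters (56.8%), against 35.7% of 27305 promoters of the same length. It was in 6 of the 7 promoters of lower members, of which RBM14 and RBM14-RBM4 are 1 window, and in 1 of the 6 of higher members. GGGCGG was in 22 of the 37 (59.5%, against 44.6% of all), including 4 of 6 higher and 4 of 7 lower members. CCGGAAG was in 9 of the 37 (24.3%, against 10.7%), CATGCGC in 5 (13.5%, against 4.67%), AAGATGG in 6 (16.2%, against 6.06%), CACGTG in 3 (8.11%, against 7.43%), TGACGTCA in 3 (8.11%, against 1.98%) and TATAAA in 3 (8.11%, against 11.95%). The median GC content of the windows was 62.3% in members and 58.3% in all promoters. The 27305 promoters were not filtered by gene type or expression, whereas the members are protein-coding genes with counts in these cells, so the sets are unlike. These are counts of letters, and no factor binding was measured.

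Ratios within a library compare related genes. Of 13 pairs, 5 had ratios that did not overlap between groups. By their own level 46.5% of all genes did not overlap, and the share among other gene pairs was not measured. The ratios carry no GC offset. The log2 ratio of RBM15 to RBM15B was -1.32, -1.38 and -1.47 in NC and -0.87, -0.74 and -1.08 in RBM47-OE, higher by 0.50. RBM24 to RBM38, muscle and p53-induced paralogs, went from -3.03, -3.15 and -3.002 to -2.85, -2.62 and -2.38, higher by 0.44. RBM5 to RBM10 went from -1.77, -1.82 and -1.78 to -1.59, -1.49 and -1.51, higher by 0.26. In these pairs the partner of higher GC content was the one with the lower call, though RBM15B too has overlapping annotation noted above. Log2 fold changes with the GC offset were 0.33 and -0.12 for RBM15 and RBM15B, and -0.08 and -0.17 for RBM24 and RBM38. For RBM5 and RBM10 they were -0.14 and -0.03, so that RBM5 then had the lower value. RBM4 to RBM14-RBM4 was higher by 0.36 and RBM26 to RBM27 lower by 0.21, both with overlapping annotation noted above. RBM14-RBM4 also has the higher GC content of its pair. RBM26 to RBM27 went the other way, as RBM26 has the lower GC content (37.8%, against 39.2%), and neither was called without the GC offset. Each of the 5 had a two-sided exact permutation p of 0.1, the smallest that 3 against 3 allows, and 0.26 after Benjamini-Hochberg adjustment over the 13 pairs. RBM14 to RBM14-RBM4 and RBMX to RBMXL1 differed by 0.01 and 0.03, RBM12 to RBM12B by -0.01 and RBM4 to RBM4B by 0.02.

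**Figure D5:**
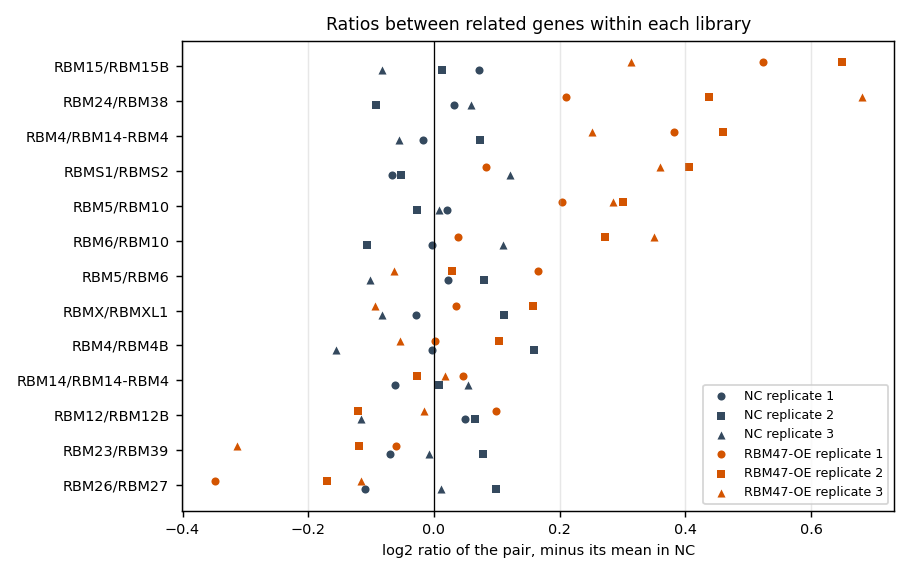
Log2 ratio of CPM between the members of each of 13 pairs of related genes, minus its mean in NC (horizontal axis), with 1 point for each library, dark for NC and orange for RBM47-OE. The ratio RBM15/RBM15B has the largest mean difference, with all overexpression points to the right of the control points, and the points of RBM14/RBM14-RBM4, RBMX/RBMXL1, RBM12/RBM12B and RBM4/RBM4B overlap around 0.

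Partner proteins of the members were followed as 37 genes in 7 lists, chosen with earlier results of these data known. Of these, 11 were higher and 9 lower (54.1% passed, against 35.9% of all genes). Those are 29.7% and 24.3%, against 22.6% and 19.4% of the protein-coding genes tested. With the GC offset 0 were higher and 12 lower (32.4%, against 8.54% of all genes lower and 6.1% higher). For protein-coding genes these shares were 9.72% lower and 7.05% higher. Whether the partners differ from protein-coding genes of similar level was not tested. Of the 6 m6A writer partners of RBM15 and RBM15B, 3 were higher: METTL14 (0.52), VIRMA (0.45) and ZC3H13 (0.35). Of the 4 exosome adaptors around RBM7, RBM26 and RBM27, the helicase gene MTREX (0.44) and ZFC3H1 (0.39) were higher. None of these 5 passed with the GC offset. Of the 9 minor spliceosome partners of RBM41 and RBM48, 2 were higher and 2 lower, among them SNRNP48 (0.42), SNRNP25 (-0.39) and ZMAT5 (-0.36). Of the 10 further spliceosome partners, 4 were higher and 3 lower, among them the U2 snRNP gene SF3B1 (0.44), SLU7 (0.41) and U2AF2 (-0.48), and U2AF2 was lower with the GC offset also (-0.26, adjusted p = 0.00245). Of the 3 paraspeckle partners of RBM14, NONO (-0.24) and PSPC1 (-0.24) were lower in both fits, and SFPQ passed with the offset alone. Of the 4 exon junction partners of RBM8A, CASC3 (-0.20) was lower, and all 4 were lower with the offset. CIRBP, the cold-inducible relative of RBM3, was lower at -0.28 and passed without the offset alone. Values in parentheses are log2 fold changes.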

How the data were processed

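Per the labels, 3 NC and 3 RBM47-OE libraries of polyadenylated RNA from HCT116 cells were sequenced, with a directional kit that the labels and the study's methods name differently. The deposited counts are whole numbers of uniquely placed reads per gene, which the authors obtained by HISAT2 alignment to GRCh38 after trimming. The authors also deposited FPKM values, scaled by gene length and mapped fragments. The counting tool, annotation and strand setting are not given in the sources used here, so reads of overlapping genes may have been split or dropped.

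The members and gene lists were chosen with earlier results of these data known. Counts were tested with edgeR 4.0.16 (R 4.3.3) by its quasi-likelihood test with TMM factors, after a filter of 10 counts in enough libraries and 15 in all, with Benjamini-Hochberg adjustment over all 16260 genes. CPM are TMM-scaled. Each SE is the size of the log2 fold change over the root of its F statistic. Alternatives were DESeq2 1.42.0, limma 3.58.1 on log2(FPKM + 1), other scalings and filters, leaving out each library, and loess offsets (span 0.3) on exonic GC content and length. Coordinates, exons and GC content came from GENCODE 44, in which 35 members had the same versioned identifier. On simulated counts with 200 changed genes among 16215, edgeR recovered 196 with 16 false calls. The fit with the GC offset also recovered 196 with 16 false calls. In the real libraries the GC offset changed many calls, so the simulation lacked this feature of the data. It checks that the code runs as intended and does not measure how reliable the calls of the members are. The level of every library was given for called members, and other members were named by unadjusted p, level or pairing. Same-numbered libraries did not deviate together (r = -0.06, -0.01 and -0.02). As deviations were taken from the mean of 3 libraries per group, this cannot settle whether same-numbered libraries were prepared together. The main fit treated them as unpaired, and fits with a replicate block are given below. Total counts of 26792409 to 35477983 do not set the counting error of a single gene, and RBM44 and RBM46 had the fewest counts. Counts were also modest for the called RBM41 (171 to 304) and RBM48 (248 to 479). Their SEs were 0.13 and 0.12, against 0.07 for RBM10 with 2743 to 4289 counts.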

Additional observations from a re-analysis of the deposited data

How the results depend on the processing

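The counts of 8 higher and 7 lower members were within 1.5 times under DESeq2, RLE factors and the stricter filter, each of which kept all 15 calls, and without a filter (14 kept). Higher members numbered 13 with library totals, 5 with the length offset, 3 with the GC offset, and 2 by limma on log2(FPKM + 1) without a filter, which gave 4 lower members. Leaving out 1 library gave 5 to 12 higher and 6 to 8 lower. Apart from the GC offset, the share of all genes called in these settings is not given. At the study's cut-offs, 1 member was higher with library totals and 1 with the length offset, and 0 to 1 when a library was left out. The median log2 fold change of the members was 0.12 with library totals, 0.13 by limma on log2(FPKM + 0.1), -0.0752 with the GC offset and 0.0408 to 0.114 with a library left out. The summed CPM differed by 0.01 on the log2 scale, and by -0.0223 to 0.0279 with a library left out (-0.0025 without replicate 1 of NC, and the lowest without replicate 3 of RBM47-OE). Partner genes numbered 0 higher with the GC offset, and 4 higher and 5 lower by limma without a filter.

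With a replicate block, 6 members were higher and 7 lower, and RBM25 and RBM39 did not pass. With the GC offset and the replicate block together, 3 were higher, partners numbered 0 higher, and the median was -0.0771. Signs turned with the GC offset, and with the offset and block, for RBM25 (-0.16 and -0.16), RBM39 (-0.14 and -0.14), RBMX (-0.10 and -0.10), RBM27 (-0.0687 and -0.0698), RBMS1 (-0.0622 and -0.0577), RBM12 (-0.23 and -0.23), RBM12B (-0.28 and -0.28) and RBM26 (-0.31 and -0.31). RBM12, RBM12B and RBM26 also turned with the length offset (-0.00941, -0.0347 and -0.0741) and without RBM47-OE replicate 3, and with a library left out they ran from -0.0415 to 0.0946, from -0.0259 to 0.155 and from -0.0489 to 0.132. Beyond the change of the offset itself, the cause was not tested. Depth limits RBM44 and RBM46 the most, at under 30 counts in every library. Of the 16 members without a value of their own, 14 changed sign in some setting, 10 of them in one without the GC offset.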
